A study of Homo sapiens with 10 samples.

Results

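Cancer-testis antigens are proteins that germ cells of the testis make, that most other tissues do not, and that many tumours switch on again. In A375 cells treated with doxycycline, PAGE1 rose 3.10-fold. Of 8 type II MAGE genes, which are widely expressed, MAGED1 and MAGED2 rose 1.75-fold and 1.72-fold and 6 did not pass the test. Lower were 4 of 7 SSX probe sets and 3 of 6 PAGE probe sets. Among them, SSX1, SSX5 and PAGE2 fell whichever array was left out. Probe sets of the SSX genes, and those of PAGE2, PAGE2B and PAGE5, may share hybridisation, so these counts may not be of independent changes. Over the whole array 38.1% of probe sets changed, 17.2% lower, and of these 46 genes 28.3% changed. Of the antigens with strong signal, MAGEA4 and PRAME rose 1.22-fold and 1.20-fold, whichever array was left out. MAGEA10 rose 1.21-fold, but not in every fit. The antigens MAGEA3, MAGEA6, MAGEC2 and MAGEA1 did not pass the test in either direction. The genes were chosen by name: every probe set whose symbol begins with MAGEA to MAGEF, MAGEH, MAGEL, SSX and a digit, PAGE or XAGE, or is PRAME, CTAG2, NDN or CSAG1. This gave 46 probe sets of the 18569 on the array, each for a different gene, with 41 of them on the X chromosome. BAGE2, also named by the rule, is not analysed here. The symbol prefix also takes in SSX2IP, which encodes a centrosome protein that binds an SSX protein and is not itself a cancer-testis antigen.

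A375 is an established human melanoma line. The groups are 5 arrays of untreated control cells and 5 of cells that had 2 µg/ml doxycycline from plating, all frozen on day 4, in the same medium with glutamine and serum, and each array is labelled as a biological replica of its group. The title of the study names Omomyc, a mutant MYC dimerisation domain that competes for MYC and MAX, and its effect on growth, but the sources used here do not give the construct, its promoter or whether the line is 1 clone, and no array analysed here had doxycycline without it. An effect of doxycycline itself and of the transgene cannot be told apart. The labels do not state that replicas were separate cultures, so the p-values rest on a spread between arrays that may be technical in part. Values are log2 signals, and a difference of 1 is a doubling of signal. A probe set was counted as changed at an adjusted p under 0.05 from limma, with Benjamini-Hochberg adjustment over all 18569 probe sets.

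MAGE proteins share a MAGE homology domain, with which they bind RING-type ubiquitin ligases and steer them to substrates. Type I MAGE genes (the A, B and C families) lie on X and are kept to the germ line, whereas type II genes (MAGED to MAGEL2 and NDN) are expressed in many tissues. SSX proteins are nuclear corepressors, known from the SS18-SSX fusions of synovial sarcoma, and the PAGE, XAGE and GAGE proteins are small, acidic and largely unstructured. Promoters of the germline-restricted genes are silenced in somatic cells by DNA methylation and by repressor complexes. One of these complexes, PRC1.6, is brought to E-box and E2F sequences by MGA with MAX and by E2F6. MYC with MAX binds E-boxes of the same letters.

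Promoter sequences from RefSeq (GRCh38.p14) are shown for the PAGE family, whose members changed in opposite directions. PAGE3, which was dim, is not shown. Each line gives the 250 bases before the gene's start, 5′ to 3′ on the gene's strand, with the E-box CACGTG in capitals.
PAGE1, chrX:49695985-49696234, minus strand: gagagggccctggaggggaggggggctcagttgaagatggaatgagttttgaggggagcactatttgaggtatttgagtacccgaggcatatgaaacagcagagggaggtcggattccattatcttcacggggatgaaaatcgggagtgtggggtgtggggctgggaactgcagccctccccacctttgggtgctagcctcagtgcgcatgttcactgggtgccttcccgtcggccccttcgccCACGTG
PAGE4, chrX:49829010-49829259, plus strand: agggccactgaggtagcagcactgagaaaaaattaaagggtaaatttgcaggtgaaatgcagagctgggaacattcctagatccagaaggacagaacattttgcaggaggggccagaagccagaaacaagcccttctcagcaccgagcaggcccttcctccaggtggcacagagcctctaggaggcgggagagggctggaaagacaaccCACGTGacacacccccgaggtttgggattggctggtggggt
PAGE2B, chrX:55074780-55075029, plus strand: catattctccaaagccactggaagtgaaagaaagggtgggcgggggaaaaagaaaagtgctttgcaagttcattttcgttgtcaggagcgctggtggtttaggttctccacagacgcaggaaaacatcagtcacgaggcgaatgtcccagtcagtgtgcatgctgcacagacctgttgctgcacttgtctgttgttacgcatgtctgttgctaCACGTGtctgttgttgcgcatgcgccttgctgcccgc
PAGE5, chrX:55220096-55220345, plus strand: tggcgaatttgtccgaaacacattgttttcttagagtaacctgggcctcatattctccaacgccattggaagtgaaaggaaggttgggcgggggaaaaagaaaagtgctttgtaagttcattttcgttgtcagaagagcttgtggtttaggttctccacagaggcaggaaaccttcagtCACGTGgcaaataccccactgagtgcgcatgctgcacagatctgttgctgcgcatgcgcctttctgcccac
PAGE2, chrX:55088768-55089017, plus strand: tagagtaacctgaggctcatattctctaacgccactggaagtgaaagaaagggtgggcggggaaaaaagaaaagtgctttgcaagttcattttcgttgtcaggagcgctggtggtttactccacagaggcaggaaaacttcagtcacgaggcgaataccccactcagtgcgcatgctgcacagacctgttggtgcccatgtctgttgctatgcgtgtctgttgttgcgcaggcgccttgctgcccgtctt
The first base of the E-box lies 6 bases before the start of PAGE1, 37 before that of PAGE2B and 71 before that of PAGE5. For PAGE4 it lies 41 bases before the start used here and 84 before another RefSeq start. PAGE2 has no E-box in this window, and the window of PAGE3, not shown, has none either. Counted from 1 at the 5′ end of the PAGE2B window, PAGE2 differs within the aligned E-box by C214T and A215G, and the 300-base windows of both genes, which run on 50 bases past the start, are 81.0% identical. PAGE2, PAGE2B and PAGE5 fell, PAGE1 rose and PAGE4 did not pass the test. The probe sets of PAGE2, PAGE2B and PAGE5 may share hybridisation, which was not tested, so their falls may not be independent.

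RefSeq windows of 300 bases were matched for 37 of the 46 genes, 49 windows in all, and the others were MAGEA1, MAGEA10, MAGEB17, MAGEH1, SSX3, SSX6P, SSX8P, SSX9P and CTAG2. CACGTG, which reads the same on both strands, was in 6 of the 49 (12.2%) against 7.26% of all 35116 windows. The 6 belonged to 5 genes, 4 of 6 PAGE genes and XAGE3, since PAGE4 has overlapping windows that hold the same E-box. The windows are not independent: those of PAGE1 and XAGE3 were 65.3% identical and those of PAGE2B and PAGE5 63.1%. None of the 17 MAGEA, MAGEB, MAGEC and MAGED genes with a window had CACGTG. The E2F6-type sequence TTCCCGC, read on both strands, was in 2 of the 49 windows (4.08%), those of SSX1 and SSX5, against 6.55% of all windows. The ETS core GGAAG was in 85.7% of the windows against 71.9%, and the SP1-type GGGCGG in 51.0% against 45.0%. GGAAG and GGGCGG can each share letters with the reverse complement of TTCCCGC. The median window held 11 CpG dinucleotides, against 14 over all windows. MAGEA3 and MAGEA6 had identical windows, 300 of 300 bases. A match is a run of letters, and occupancy of these sites was not measured.

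Of the 46 probe sets, 13 changed, 6 higher and 7 lower, which is 28.3% against 38.1% of all probe sets. Over all probe sets 20.9% were higher and 17.2% lower. After median centring of the arrays the split among the 46 was 9 higher and 5 lower. Without doxycycline array 5 the number lower was 3, and without doxycycline array 2 it was 4. The groups of arrays did not overlap for 8 of the 46, against 28.6% of all probe sets. At least 0.5 log2 units and the test were met by 4 of the 46, PAGE1, MAGED1, MAGED2 and SSX1, against 20.2%. Probe sets under the median signal changed less often (22.0%) than those above it, and 17 of the 46 had both group means under 2.80, the lowest first quartile of any array. None of these 17 passed the limma test, 2 had an unadjusted p under 0.05 (SSX3 and CTAG2), and their fold changes ran from -0.20 to 0.23. Of the 19 with a mean at or above the array's median probe set, 9 changed, 6 higher and 3 lower, against 54.3% of such probe sets. On X, 12 of 41 changed, against 32.9% of X probe sets. The median log2 fold change was 0.02 over the 46 and 0.04 over all probe sets.

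**Figure D1:**
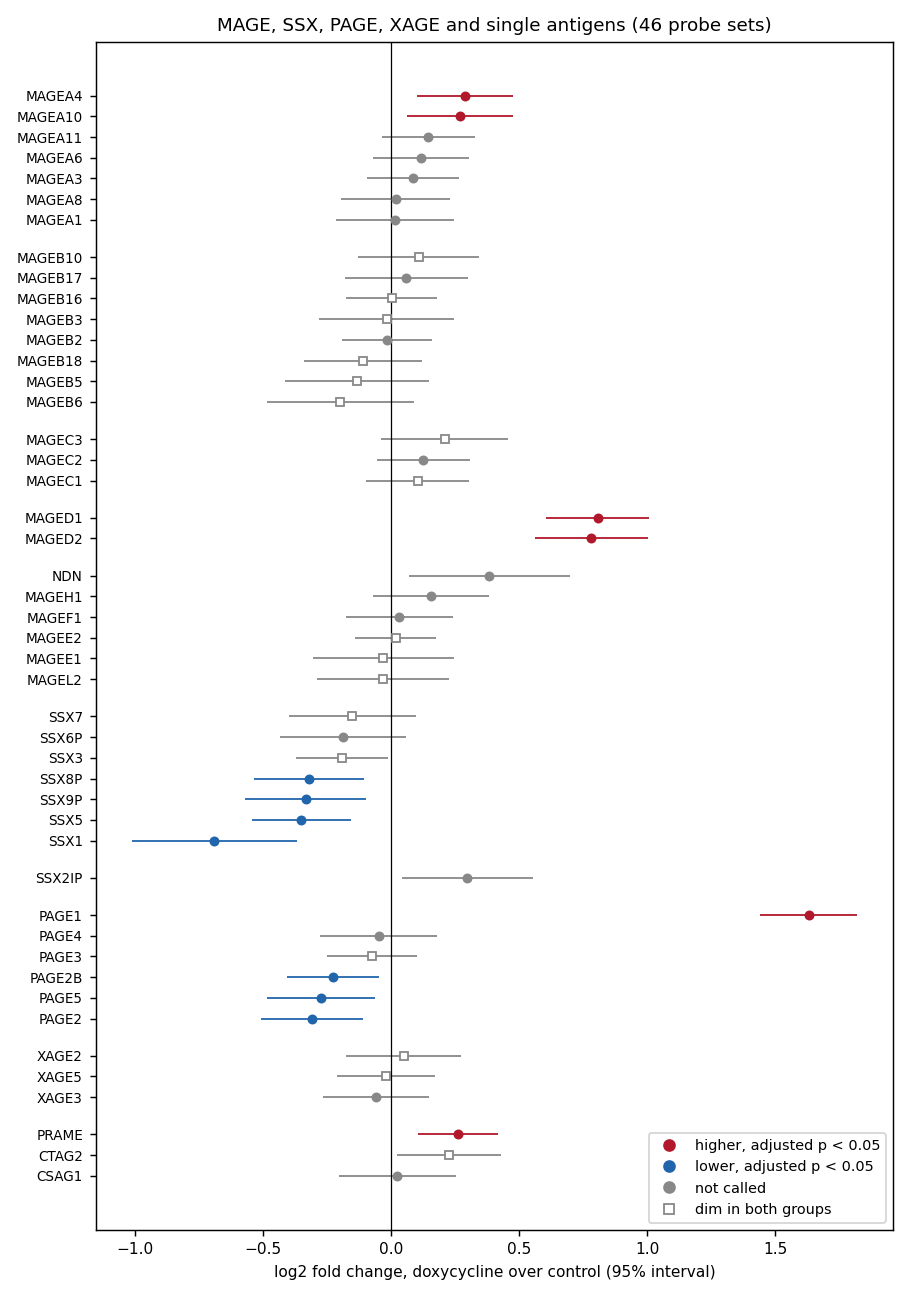
Log2 fold change of doxycycline over control (horizontal axis) with its 95% interval for the 46 probe sets, grouped by family, where red and blue mark probe sets that were higher or lower at an adjusted p under 0.05 and open squares mark dim ones. PAGE1 lies at 1.63, MAGED1 and MAGED2 at 0.81 and 0.78, and all 7 SSX probe sets lie below 0.

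PAGE1, a member of the P antigen family expressed in testis, had log2 signals of 4.44, 4.51, 4.41, 4.64 and 4.22 on control arrays 1 to 5. On the doxycycline arrays it read 5.98, 6.02, 6.19, 6.06 and 6.12. Every doxycycline array stood above every control array, by a gap larger than the range within either group. The means were 4.44 ± 0.15 and 6.07 ± 0.08 (SD, n = 5 each), a log2 difference of 1.63 ± 0.09 (SE) with an adjusted p of 2.42e-09 from limma.

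The other PAGE genes on the array did not share this change. Of the 6 PAGE probe sets 66.7% changed, 1 higher and 3 lower, against 38.1% of all probe sets. Those that changed had means at or above the median signal, where 54.3% of probe sets changed. PAGE2 read 8.64, 8.39, 8.49, 8.26 and 8.24 in control and 8.18, 8.07, 8.07, 7.97 and 8.19 with doxycycline, with no overlap. It fell by 0.31 ± 0.09 (adjusted p 0.0159 from limma). PAGE5 read 9.54, 9.24, 9.49, 9.14 and 9.31 against 9.28, 9.05, 8.94, 8.98 and 9.10, and the lowest controls lay within the doxycycline range. It fell by 0.27 ± 0.10 (adjusted p 0.0392). PAGE2B read 8.09, 7.81, 8.05, 7.91 and 7.81 against 7.83, 7.69, 7.68, 7.71 and 7.63, with a small overlap. It fell by 0.23 ± 0.08 (adjusted p 0.0448). The probe sets of PAGE2, PAGE5 and PAGE2B may report in part on the same RNAs, so the 3 falls may not be independent. PAGE2 kept its call in every fit, whereas PAGE5 and PAGE2B did not. PAGE5 missed the threshold without control array 1, 3 or 5 or doxycycline array 2, 3, 4 or 5 (adjusted p 0.0557 to 0.106) and after median centring (-0.24, adjusted p 0.0708). PAGE2B missed it without control array 1, 3 or 4 or doxycycline array 2, 3, 4 or 5 (adjusted p 0.0621 to 0.117) and after median centring (-0.19, adjusted p 0.0957). PAGE4, known from prostate and placenta, had means of 3.22 ± 0.22 and 3.17 ± 0.12, a difference of -0.05 with a 95% interval of -0.28 to 0.18. PAGE3 was dim.

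MAGED1, a type II MAGE protein that binds the neurotrophin receptor NGFR and is also called NRAGE, read 7.87, 8.25, 8.11, 8.15 and 8.02 in control. With doxycycline it read 9.05, 8.91, 8.95, 8.83 and 8.69, all above the highest control. Its log2 difference was 0.81 ± 0.09, 1.75-fold, with an adjusted p of 6.48e-06 from limma. MAGED2, whose loss in people causes a transient renal salt-wasting disorder before birth, read 7.29, 7.15, 7.25, 7.21 and 7.16 in control. It read 8.33, 7.98, 8.01, 7.69 and 7.97 with doxycycline, again without overlap, and array 1 was the highest. The difference was 0.78 ± 0.10, 1.72-fold, with an adjusted p of 2.08e-05. MAGED1 and MAGED2 kept their calls under every alternative.

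None of the 6 other type II genes passed the limma test, against 38.1% of all probe sets, and NDN alone had an unadjusted p under 0.05. NDN (necdin), an imprinted growth suppressor of 15q11, read 4.86, 4.34, 4.55, 4.78 and 4.54 in control and 5.58, 4.86, 4.85, 4.94 and 4.77 with doxycycline. Doxycycline array 1 stood far above the other 4 arrays of its group, and the groups overlapped. The difference of 0.38 ± 0.15 had an adjusted p of 0.0515, just outside the threshold, and passed without control array 1 (0.45, adjusted p 0.0367), control array 4 (0.43, adjusted p 0.0492) or doxycycline array 5 (0.44, adjusted p 0.0377). It also passed with all arrays after the 25th percentile filter (adjusted p 0.0421), median centring (0.0370), a second quantile normalization (0.0478) and an intensity trend (0.0429). MAGEF1, which directs the ligase subunit NSMCE1 to a protein of iron-sulfur cluster assembly, had means of 7.26 ± 0.17 and 7.30 ± 0.12, a difference of 0.03 with an interval of -0.18 to 0.24. MAGEH1 differed by 0.16, with an interval of -0.07 to 0.38. MAGEE1, MAGEE2 and MAGEL2 were dim.

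All 7 MAGEA probe sets had a mean above control, by 0.01 to 0.29 log2 units, and 2 passed the test. Over all probe sets 38.1% passed, and 54.3% of those at or above the median signal, where all 7 lay. The sign held for all 7 after median centring and after a second quantile normalization. With 1 array left out, 5 to 7 of them stayed above 0. Over all probe sets, 10500 of 18569 had a difference above 0. Their median was 0.04, above MAGEA1 (0.01) and MAGEA8 (0.02). Values of genes of the same family may not be independent. MAGEA4, which stabilises the DNA repair ligase RAD18, read 9.90, 9.68, 9.78, 9.60 and 9.77 in control and 10.12, 10.03, 10.13, 9.82 and 10.06 with doxycycline. Array 4 of the doxycycline group lay within the control range and the other 4 lay above it. MAGEA4 rose by 0.29 ± 0.09 (adjusted p 0.0171) and kept the call in every fit. MAGEA10 read 5.49, 5.62, 5.70, 5.27 and 5.44 against 5.96, 5.71, 5.66, 5.79 and 5.73, with 1 doxycycline array inside the control range. It rose by 0.27 ± 0.10 (adjusted p 0.0380). Without control array 1, 4 or 5 or doxycycline array 1, 4 or 5 its adjusted p was 0.0545 to 0.0972, and with array weights the difference was 0.19 with an adjusted p of 0.114.

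The other 5 MAGEA genes did not pass the test. MAGEA3, a vaccine antigen tried in melanoma that activates the ligase TRIM28 and has a close copy in MAGEA6, read 8.29, 8.30, 8.39, 8.12 and 8.30 in control and 8.45, 8.43, 8.46, 8.20 and 8.31 with doxycycline. The groups overlapped, and the difference of 0.09 had a 95% interval of -0.09 to 0.27. MAGEA6 had means of 8.22 ± 0.11 and 8.34 ± 0.13, a difference of 0.12 with an interval of -0.07 to 0.31. The probe sets of this pair may hybridise with RNA of both genes. MAGEA1 differed by 0.01 (-0.22 to 0.25), MAGEA8 by 0.02 (-0.20 to 0.23) and MAGEA11, a coregulator of the androgen receptor, by 0.15 (-0.04 to 0.33).

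MAGEC2, another partner of TRIM28, read 8.89, 8.91, 8.93, 8.94 and 8.73 in control and 9.00, 8.95, 9.18, 9.06 and 8.85 with doxycycline. The difference of 0.13 had an interval of -0.05 to 0.31 and did not pass. MAGEC1 and MAGEC3 were dim, as were 6 of the 8 MAGEB probe sets. MAGEB2 had means of 2.99 ± 0.11 and 2.97 ± 0.08, and MAGEB17 of 3.51 ± 0.14 and 3.57 ± 0.23. None of the MAGEB or MAGEC probe sets passed in the limma fit to all arrays or with 1 array left out. Of these 11, 0 had an unadjusted p under 0.05. Over all probe sets 38.1% passed with all arrays.

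All 7 SSX probe sets had a lower mean with doxycycline, by 0.15 to 0.69 log2 units, and 4 passed the test. Over all probe sets 17.2% were lower. The means of all 7 were under the median signal, where 22.0% of probe sets changed. The sign was the same for all 7 under both other scalings and with each array left out. SSX1, a fusion partner of SS18 in synovial sarcoma, read 4.29, 5.08, 4.57, 4.67 and 4.49 in control and 3.55, 4.02, 4.11, 3.74 and 4.23 with doxycycline. The groups did not overlap, and control array 2 was the highest. SSX1 fell by 0.69 ± 0.15, 1.61-fold, with an adjusted p of 0.00192 from limma. SSX5 read 5.08, 5.24, 5.34, 5.36 and 5.04 against 4.98, 4.84, 4.75, 4.96 and 4.78, without overlap, and fell by 0.35 ± 0.09 (adjusted p 0.00597). SSX1 and SSX5 kept their calls in each fit that tested them.

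The pseudogene probe sets SSX8P and SSX9P were less secure. SSX8P read 3.47, 3.91, 3.47, 3.57 and 3.67 against 3.40, 3.25, 3.32, 3.42 and 3.10, without overlap, and fell by 0.32 ± 0.10 (adjusted p 0.0206). It missed the threshold without control array 2 (-0.25, adjusted p 0.0577) or doxycycline array 5 (-0.27, adjusted p 0.0572). SSX9P read 3.24, 3.84, 3.38, 3.70 and 3.41 against 3.26, 3.10, 3.25, 3.18 and 3.11, where control array 1 lay within the doxycycline range. It fell by 0.33 ± 0.11 (adjusted p 0.0270) and missed the threshold without control array 2 (-0.25, adjusted p 0.0737), control array 4 (-0.28, adjusted p 0.0687), doxycycline array 2 (-0.31, adjusted p 0.0581) or doxycycline array 5 (-0.32, adjusted p 0.0567). Without control array 2 or doxycycline array 5, the number of SSX probe sets that fell was 2 in place of 4. SSX6P differed by -0.19 (-0.43 to 0.06), and SSX3 and SSX7 were dim. Dim SSX3 (-0.19, adjusted p 0.0919) passed without doxycycline array 1 (-0.24, adjusted p 0.0292), after a second quantile normalization (-0.22, adjusted p 0.0422) and with array weights (-0.24, adjusted p 0.0200). The SSX genes are close copies of each other, and their probe sets may share hybridisation, so the 7 values are not independent. SSX2IP, which is not of this family, differed by 0.30 ± 0.12 (adjusted p 0.0644) and passed without control array 2 (adjusted p 0.0410) or control array 4 (adjusted p 0.0294). It also passed with all arrays after the median filter (adjusted p 0.0310), median centring (0.0412), a second quantile normalization (0.0366), an intensity trend (0.0487) and array weights (0.0263).

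PRAME, which serves as substrate receptor of a CUL2 ligase and represses retinoic acid receptor signalling, read 9.04, 9.04, 8.97, 9.10 and 9.10 in control. It read 9.36, 9.39, 9.32, 9.22 and 9.27 with doxycycline, above every control array. PRAME rose by 0.26 ± 0.07, 1.20-fold, with an adjusted p of 0.0104 from limma. CSAG1, which lies among the MAGEA genes on X, had means of 6.65 ± 0.24 and 6.68 ± 0.07 and a difference of 0.03 (-0.20 to 0.25). Dim CTAG2, a relative of the antigen NY-ESO-1, differed by 0.23 (adjusted p 0.0759) and passed without control array 1 (0.28, adjusted p 0.0330) or doxycycline array 5 (0.27, adjusted p 0.0456), and after median centring (0.26, adjusted p 0.0461). Of the XAGE genes, XAGE3 differed by -0.06 (-0.26 to 0.15), and XAGE2 and XAGE5 were dim. Of the 3, 0 passed in limma, against 38.1% of all probe sets, and 0 had an unadjusted p under 0.05.

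**Figure D2:**
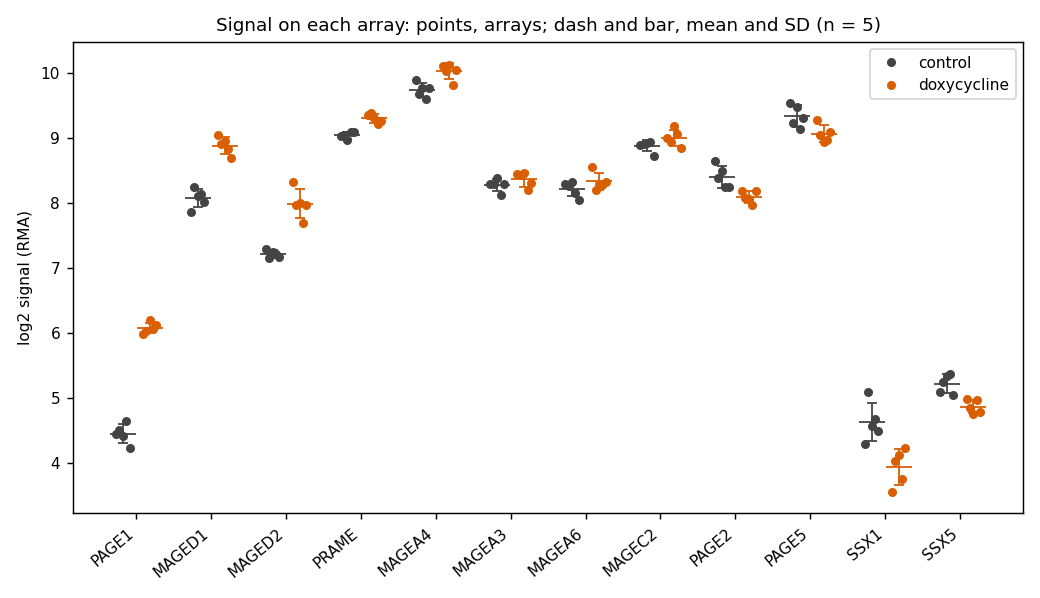
Log2 signal (vertical axis) on each of the 5 control and 5 doxycycline arrays for 12 of the genes, with the mean and SD of each group. PAGE1, MAGED1 and MAGED2 are separated between groups, SSX1 and SSX5 are separated in the other direction, and MAGEA3, MAGEA6 and MAGEC2 overlap. Heights of different genes are not comparable, since each has its own probes.

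Of the 46 genes, 19 lie in 1 stretch of the short arm of X that runs, with 2 measured neighbours at each end, over 88 measured genes. Changed genes of both signs lay along it. Outside the naming rule, 18 of 69 neighbours changed (26.1%), 10 higher and 8 lower, against 38.1% of all and 32.9% of X probe sets. The 69 include the cancer-testis genes GAGE10 and GAGE1, both higher, and SPANXN5, and the MAGE family gene TRO. PAGE1 follows the GAGE cluster, whose measured genes GAGE10 and GAGE1 rose by 0.45 ± 0.11 and 0.33 ± 0.09 (adjusted p 0.00339 and 0.00664). GAGE genes are near-identical copies, so these probe sets may report on several of them. On the other side of PAGE1, PAGE4 did not pass, and CLCN5, a chloride and proton exchanger and not a cancer-testis gene, fell by 0.41 ± 0.14 (adjusted p 0.0287). MAGED2 is followed by TRO, a further MAGE family gene, which differed by 0.46 ± 0.19 (adjusted p 0.0774) and passed without control array 2 or doxycycline array 1 (adjusted p 0.0114 at the lowest). PAGE2B, PAGE2 and PAGE5, which fell, lie a few genes farther on.

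**Figure D3:**
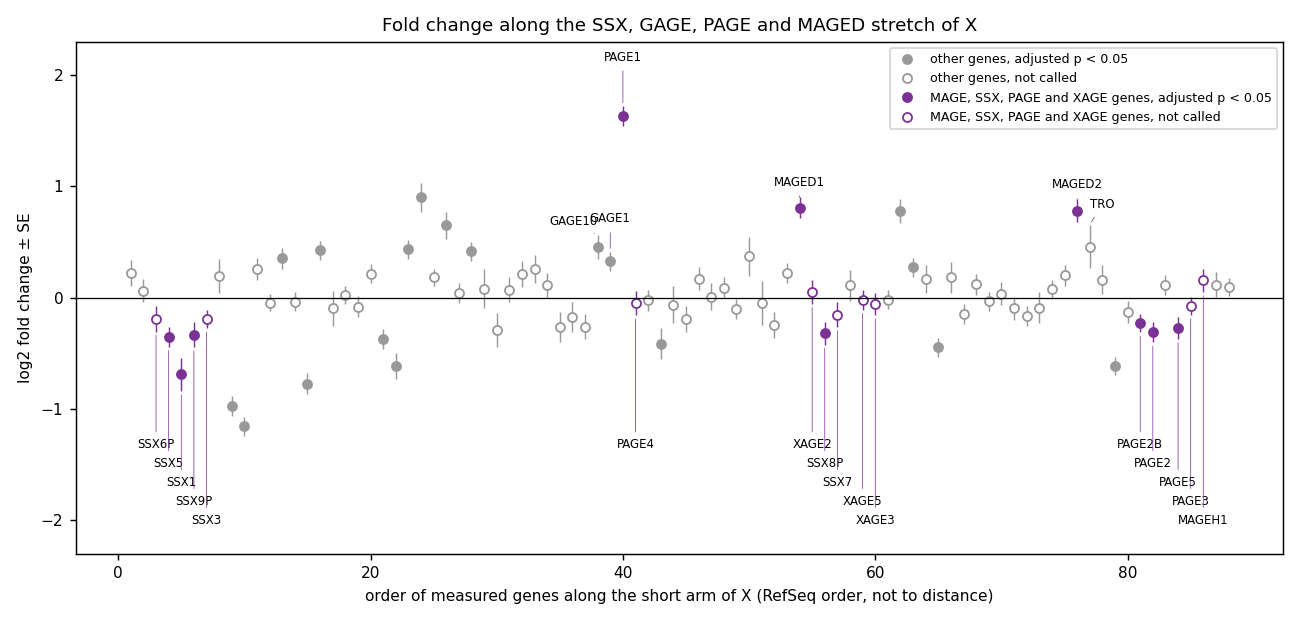
Log2 fold change with its SE (vertical axis) for 88 measured genes in RefSeq order along the short arm of X (horizontal axis, by order and not distance), with the MAGE, SSX, PAGE and XAGE genes in purple and filled points for an adjusted p under 0.05. PAGE1, at 1.63, stands beside GAGE10 and GAGE1 at 0.45 and 0.33, and the SSX genes lie below 0.

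Among 70 other measured cancer-testis genes, outside the naming rule, 8 were higher and 11 lower (27.1% in all, against 38.1% of all probe sets), with a median log2 fold change of 0.00, and 40 of the 70 were dim. LY6K, a membrane-anchored protein of sperm formation, fell 9.28-fold (-3.21 ± 0.14, adjusted p 2.65e-10). RBM46, a germ cell RNA-binding protein, fell by 1.27 ± 0.13, VCX2 by 0.78 ± 0.13 and CT83 by 0.69 ± 0.13. CT45A10 fell by 0.63 ± 0.13 and SPANXB1, of a sperm nuclear family, by 0.58 ± 0.10. Higher genes included ROPN1B, a sperm flagellum protein (1.65 ± 0.10, 3.13-fold), its relative ROPN1 (0.66 ± 0.09), TMEFF2 (1.65 ± 0.13) and the histone demethylase KDM5B (0.73 ± 0.08). The direction thus varied within this wider class too. ROPN1 and ROPN1B are near copies and may share hybridisation.

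Of 28 measured partners of MAGE and PRAME proteins, 8 were lower and 2 higher (35.7% in all, against 38.1% of all probe sets), with a median of -0.05. TRIM27, the ligase partner of MAGEL2, fell 3.26-fold (-1.70 ± 0.11, adjusted p 1.12e-08). NSMCE4A, a kleisin of the SMC5/6 complex that MAGE proteins of the NSE3 type bind, fell by 1.21 ± 0.10, and NSMCE1, the partner of MAGEF1, by 0.69 ± 0.08. LRR1, another CUL2 substrate receptor, fell by 1.07 ± 0.10 and SKP2 by 0.74 ± 0.08. PJA2, a RING ligase, rose by 0.82 ± 0.10. TRIM28, the partner of MAGEA3, MAGEA6 and MAGEC2, fell by 0.37 ± 0.09 (adjusted p 0.00538). Of the 2 that were higher, TRIM8 (0.30, adjusted p 0.0196) missed the threshold without control array 4 or doxycycline array 3, which left 1 gene higher, and without control array 1, and its largest adjusted p was 0.0528.

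Of 16 measured genes of PRC1.6, the repressor of germline genes, 6 were lower and 2 higher (50% in all, against 38.1% of all probe sets), and 1 of the 6, HDAC2, depended on which arrays were used. TFDP1, which pairs with E2F6, fell by 1.92 ± 0.08 (adjusted p 1.69e-10), MGA by 1.26 ± 0.11 and E2F6 by 1.18 ± 0.16. CBX3 fell by 0.51 ± 0.10 and WDR5 by 0.45 ± 0.09. HDAC2 fell by 0.25 ± 0.09 (adjusted p 0.0440) and passed in 1 of the 10 fits that left out an array, that without doxycycline array 3, with adjusted p up to 0.102. RING1, a histone ubiquitin ligase of the complex, rose by 0.77 ± 0.11 and RYBP by 0.31 ± 0.09. The genes that did not pass differed by -0.25 (L3MBTL2), -0.11 (EHMT2), -0.08 (MAX), -0.07 (TFDP2), -0.01 (PCGF6), 0.01 (YAF2), 0.10 (EHMT1) and 0.20 (HDAC1). L3MBTL2 passed without control array 1 or doxycycline array 1, and HDAC1 without control array 5, with adjusted p of 0.00853 and 0.0225 at the lowest.

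Of 20 measured genes of DNA methylation, 5 were higher and 4 lower (45.0% in all, against 38.1%). UHRF1, which brings the maintenance methyltransferase to newly copied DNA, fell by 1.78 ± 0.09 (adjusted p 1.87e-09). The chromatin remodeller HELLS fell by 1.11 ± 0.10, DNMT1 by 0.77 ± 0.07 and MBD3 by 0.31 ± 0.11. ZBTB4, DNMT3A and TET2, the last an enzyme that oxidises methylcytosine, rose by 0.55 ± 0.09, 0.55 ± 0.12 and 0.53 ± 0.09, UHRF2 by 0.36 ± 0.09 and MBD4 by 0.21 ± 0.07. MBD3 missed the threshold in 5 of the 10 fits that left out an array (without control array 2, 3 or 5 or doxycycline array 2 or 4, adjusted p up to 0.0824), and MBD4 passed in 3 of them (without control array 4 or doxycycline array 1 or 5). The genes that did not pass differed by -0.14 (USP7), -0.08 (MBD2), -0.05 (TDG), -0.01 (CXXC1), 0.02 (DNMT3L), 0.13 (DNMT3B), 0.18 (MBD1), 0.19 (ZBTB38 and TET3), 0.32 (ZBTB33) and 0.35 (TET1). TET1 and ZBTB33 passed without doxycycline array 1 and TET3 without control array 5, with adjusted p of 0.000718, 0.00668 and 0.0398. DNA methylation itself was not measured.

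Of 24 measured genes of histone methylation and TRIM28-dependent silencing, 7 were higher and 6 lower (54.2% in all, against 38.1%). The 6 with the largest change were EZH2, the methyltransferase of PRC2, which fell by 1.36 ± 0.10, SUV39H1 (-0.77 ± 0.10), SUV39H2 (-0.77 ± 0.09), KDM5B (0.73 ± 0.08), MPHOSPH8 (0.58 ± 0.15) and CBX3 (-0.51 ± 0.10). Without control array 1 the number higher was 4.

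**Figure D4:**
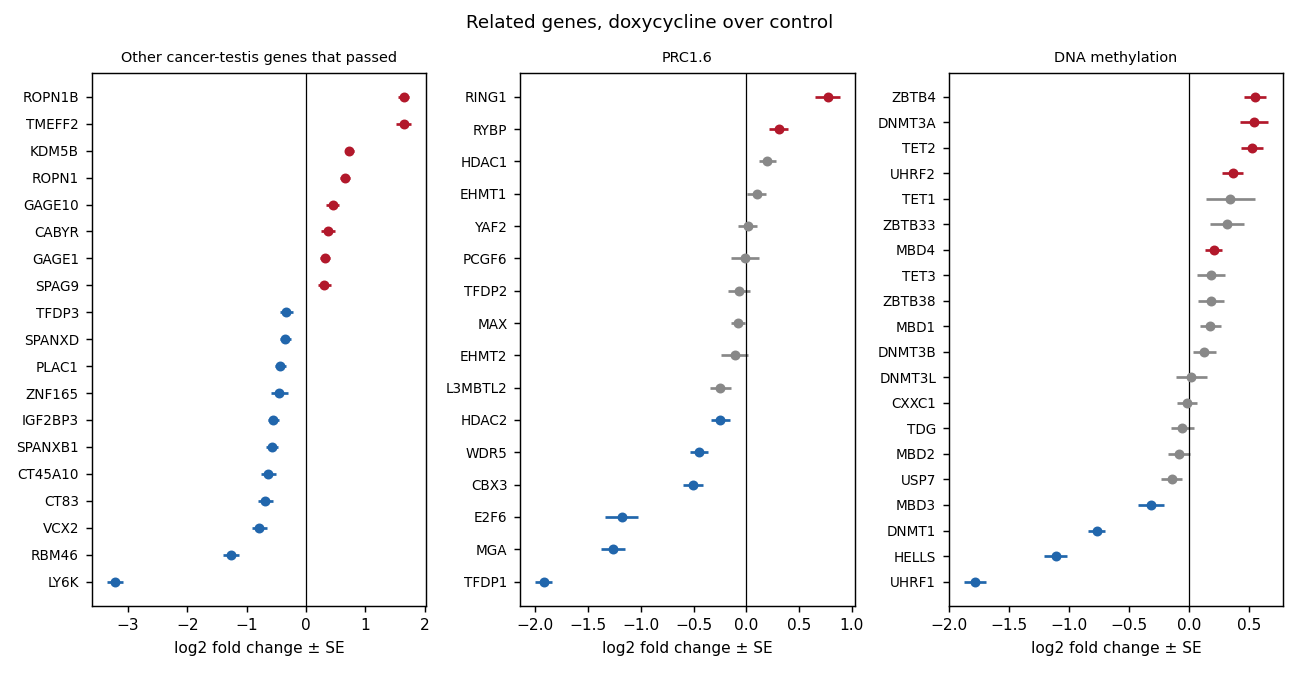
Log2 fold change with its SE (horizontal axis) for the 19 other cancer-testis genes that passed the test, the 16 measured PRC1.6 genes and the 20 measured DNA methylation genes, in red where higher and blue where lower. LY6K lies at -3.21, TFDP1 at -1.92 and UHRF1 at -1.78.

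Transcription factors known from cancer-testis promoters changed in both directions, with 6 higher and 4 lower of 16 (62.5% in all, against 38.1%), the same counts with each array left out. E2F1 fell by 1.21 ± 0.14, ETS1 by 1.11 ± 0.10, YBX1 by 0.62 ± 0.07 and ETS2 by 0.37 ± 0.10. RARA, the receptor whose signalling PRAME represses, rose by 0.80 ± 0.07, MYC by 0.61 ± 0.10 and MZF1 by 0.51 ± 0.15. GABPA rose by 0.44 ± 0.08, and SP1 and HIF1A by 0.34 ± 0.09 each. Omomyc is made from a part of MYC, so the MYC probe set may also hybridise with its RNA, which was not tested. CTCFL (0.15), SP3 (0.14), SOX9 (0.08), ELK1 (0.02), CTCF (0.00) and NRF1 (-0.11) did not pass. CTCFL, the germline relative of CTCF, was dim.

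Of 12 measured neighbours of MAGEL2 and NDN on chromosome 15, 1 was higher and 2 were lower (25% in all, against 38.1%). NIPA1 rose by 0.31 ± 0.09, APBA2 fell by 0.72 ± 0.08 and NIPA2 fell by 0.22 ± 0.08. NIPA2 passed in 3 of the 10 fits that left out an array (without control array 3 or doxycycline array 1 or 5), with an adjusted p up to 0.0821. The others differed by -0.29 (MKRN3), -0.17 (ATP10A), -0.14 (OCA2 and GABRA5), -0.02 (NPAP1 and CYFIP1), 0.02 (GABRG3), 0.03 (UBE3A) and 0.21 (HERC2), and HERC2 passed without control array 5 (adjusted p 0.0209). Of 13 neurotrophin and apoptosis partners of MAGED1 and NDN, 3 were lower and 3 higher (46.2% in all, against 38.1%). NGFR, the receptor that MAGED1 binds, fell by 1.04 ± 0.11, AATF by 1.71 ± 0.07 and E2F1, which NDN binds, by 1.21 ± 0.14. NTRK3 rose by 0.62 ± 0.10, RORA by 0.55 ± 0.12 and MSX2 by 0.49 ± 0.12. MSX1 (-0.27), DLX5 (-0.03), UNC5A (0.09), BECN1 (0.09), HIF1AN (0.19), XIAP (0.25) and NTRK2 (0.29) did not pass with all arrays. MSX1 passed without doxycycline array 3 (adjusted p 0.0288), HIF1AN without control array 5 (0.0473), NTRK2 without doxycycline array 4 (0.0447) and XIAP without control array 1 or doxycycline array 5 (0.0252 at the lowest).

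Markers of other cells were measured on the same arrays. Over all probe sets, 20.9% were higher and 17.2% lower. None of 10 germ cell markers passed in the limma fit, and 0 had an unadjusted p under 0.05, with 9 dim and a summed log2 signal of 20.6 to 21.5 in control and 20.7 to 21.3 with doxycycline, DDX4, DAZL, SYCP3 and STRA8 among the dim ones. Of 9 melanocyte lineage markers 4 were higher, MITF by 1.21 ± 0.08 and S100A1 by 0.86 ± 0.09 the most (sums 40.3 to 40.9 and 42.5 to 43.7), or 2 without control array 2. The others of the 4 were S100B (0.26 ± 0.08) and dim TYR (0.23 ± 0.08). TYR passed in 3 of the 10 fits that left out an array. The 5 markers that did not pass differed by -0.10 (PMEL) to 0.19 (SOX10). SOX10 was well above the dim limit at 8.71 in control, and MITF and the S100 genes were above it too, while PMEL, MLANA, TYR, TYRP1 and GPR143 were dim. The identity of the cells as A375 comes from the sample titles and not from these markers. Of 5 fibroblast markers 4 were higher, PDGFRA by 1.64 ± 0.14 and LUM by 1.52 ± 0.10 the most (sums 17.2 to 18.2 and 21.3 to 22.2). COL1A1, also among the 4 (0.32 ± 0.11), passed in 4 of the 10 fits that left out an array. KDR alone rose of 4 endothelial markers (1.18 ± 0.12), with sums of 13.0 to 14.1 and 14.2 to 16.2 and CDH5 added without doxycycline array 4, and PECAM1, at 2.10 in control, was dim. CD14 alone rose of 5 leukocyte markers (0.51 ± 0.09), with sums of 18.3 to 19.4 and 19.2 to 20.3, and PTPRC and CD3E were dim. Of 5 keratinocyte markers KRT5 was higher (0.39 ± 0.12), with sums of 11.9 to 13.3 and 12.1 to 13.2, and this call was lost without control array 2 or 3 or doxycycline array 4. The part of these shifts in the values of the MAGE, SSX and PAGE genes was not tested, and with bulk RNA fewer cells that express a gene and less RNA per cell cannot be told apart.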

How the data were processed

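Total RNA of 5 control and 5 doxycycline samples was hybridised to Clariom S human HT arrays. The deposited values are log2 signals made with RMA, per the submitters' processing notes; its version is not given in the sources used here. RMA equalises array distributions, so changes are relative to the other genes, and it compresses changes of dim ones. Values ran from 1.14 to 12.9, with array medians of 5.02 to 5.10, and arrays correlated at 0.990 to 0.997 inside a group and 0.970 to 0.976 across groups. The number of arrays limits precision; the median SE of the 46 genes was 0.10 log2 units.

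Of 18569 probe sets, 17511 had 1 symbol in the platform annotation and 1058 none; symbols, chromosomes, gene order and promoters came from RefSeq GRCh38.p14. All probe sets were fitted in R 4.3.3 by limma 3.58.1 (lmFit, then eBayes), two-sided, with group as the only term, checked on simulated data. Where a listed gene had several probe sets, the one of highest mean stood for it. Intervals are 95% and SDs are over 5 arrays.

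The genes, the 9 related lists, the 6 marker lists and the tests were chosen with earlier results of these data known. Named with values were the members that passed, the 12 of highest mean, the 6 changed genes of largest size of each related list and every gene of related lists of up to 20 measured genes. Chosen after their values were seen were the other members and neighbours named, the marker genes given with values, CT83, CT45A10, SPANXB1 and ROPN1 of the other cancer-testis genes, and TRIM28 and TRIM8 of the ligase partners. Alternatives were filters on dim probe sets (25th percentile and median), median centring, a second quantile normalization, an intensity trend with robust eBayes, array weights, the replicate number as a block, 1 probe set per gene, a fold change of at least 0.5, near-identical genes counted once, SSX2IP left out and each array left out.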

Additional observations from a re-analysis of the deposited data

Results flagged for a closer look

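In 5 of 92 groups of 5 arrays, 1 array stood apart from the other 4, by a gap that took up most of the group's range; chance gives about 5% of groups. NDN was highest on doxycycline array 1, with a gap of 0.786 of the range (5.58 against 4.77 to 4.94). MAGEC2 was lowest on control array 5 (0.741 of the range, 8.73 against 8.89 to 8.94). The other 3 were dim probe sets: MAGEB5 was highest on control array 2 (0.844), MAGEC3 lowest on control array 4 (0.814) and XAGE5 highest on control array 1 (0.778).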

How the results depend on the processing

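Of 13 changed probe sets, 8 passed in every fit that tested them: PAGE1, MAGED1, MAGED2, MAGEA4, PRAME, SSX1, SSX5 and PAGE2. Over 18 alternative fits the 18 genes tracked by rule gave 320 values, of which 281 kept direction and call, 33 kept direction but lost the call and 6 changed sign. The sign changed for MAGEF1 without control array 3 (-0.0126), control array 5 (-0.0018) or doxycycline array 1 (-0.0026), with a range of -0.0126 to 0.0965 over the fits that left out an array. It changed for CSAG1 with array weights (-0.0266) and without control array 4 (-0.0061) or control array 5 (-0.0563), with a range of -0.0563 to 0.0995; neither gene had passed. Requiring 0.5 log2 units left 3 higher and 1 lower of the 46, and 15 higher genes of the related lists in place of 33. The number lower was 3 without probe sets under the median signal. That filter left all 7 SSX probe sets untested, and PAGE2, PAGE5 and PAGE2B kept their calls in it. With each array left out the number lower ranged from 3 to 8 and the number higher from 5 to 7. Equal replicate numbers did not pair the arrays: deviations correlated at -0.437 to -0.0075, and with the replicate block 4 were lower in place of 7 and 6 higher as before. SSX8P, SSX9P, PAGE2B and MAGEA10 lost their calls in it (adjusted p 0.0506, 0.0545, 0.0648 and 0.0777) and NDN passed (0.0158). The cause of these differences was not tested. MAGEA3 and MAGEA6, with identical promoter windows, counted once gave the same counts, an alternative chosen after seeing the data; the comparison of proteins was not run. The median of all probe sets was 0.02 to 0.08 over the scalings. Dim probe sets limit what could be seen for 17 of the 46.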
